A study of Rattus norvegicus with 25 samples.

Results

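The thioredoxin and peroxiredoxin system was followed in rat liver through 10 listed genes: Txn1, Txn2, Txnip, Txnrd1, Prdx1, Prdx2, Prdx3, Prdx5, Prdx6 and Glrx. A gene entered by its symbol in the annotation of the array's probes, whatever its values. A probe of a single gene symbol was found for 6 of the 10, of 6518 genes with such a probe on the array. Prdx5 had only a probe that the annotation gives to Prdx5 and Ttn together, and no probe of Prdx3, Prdx6 or Glrx was found. Of the 6 genes, Txn1, Txnip, Prdx1 and Prdx2 were bright enough to be tested, while Txn2 and Txnrd1 did not lie above the array median in 50% of the samples of any group and were taken as dim.

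The series profiled livers of individual male Sprague-Dawley rats on CodeLink UniSet Rat I arrays, which carry 1 biotin-labelled sample each, to ask how pyrroloquinoline quinone (PQQ), a redox-active quinone of foods, acts on gene expression. Supplemented rats (6 arrays) and deficient rats (6 arrays) were pups of dams, mated at 10 weeks of age, that ate a basal diet, abbreviated ASD in the labels, with or without added PQQ over the last 10 days of gestation, and the pups stayed on the diet of their dam. At 6.5 weeks some supplemented rats were moved to the diet without PQQ for 48 h (depletion, 3 arrays), and some deficient rats received intraperitoneal PQQ at 1.5 mg/kg every 12 h for 36 h (repletion, 4 arrays). Rats on standard laboratory chow (6 arrays) served as a reference whose age and PQQ intake the labels do not give. No vehicle-injected group is named in the labels, so injection and PQQ cannot be told apart in the repletion group. In whole liver RNA, fewer cells of a type and less RNA per cell cannot be told apart.

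Thioredoxins are small proteins that reduce disulfide bonds in other proteins, and thioredoxin reductases recharge them with electrons from NADPH. Peroxiredoxins break down hydrogen peroxide with a reactive cysteine, which thioredoxin then reduces again. In liver this cycle works beside the glutathione system, and Txnip, which binds reduced thioredoxin, is known as a gene that rises with glucose through the carbohydrate response factors ChREBP and MondoA. Txnrd1 and Prdx1 are known targets of Nrf2, the transcription factor that binds antioxidant response elements.

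One promoter is shown because it holds the letters of such an element. The 250 bases before the annotated start of Prdx1 (RefSeq, GRCr8, chr5:135383656-135383905, plus strand) are printed 5′ to 3′, with the match to the core TGACNNNGC, here on the opposite strand, in capitals.
Prdx1: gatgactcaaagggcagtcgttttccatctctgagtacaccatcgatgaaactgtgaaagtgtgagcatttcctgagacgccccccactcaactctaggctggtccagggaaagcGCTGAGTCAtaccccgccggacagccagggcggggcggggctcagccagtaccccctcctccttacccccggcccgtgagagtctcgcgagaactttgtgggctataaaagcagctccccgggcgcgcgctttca
The match runs from 135 to 127 bases before the start. The core was found on either strand in 10.1% of 33469 such windows. None was found in the windows of Txn1, Txn2 or Prdx2, and it was found in 1 of the 2 windows of Txnrd1. The E-box CACGTG, searched because carbohydrate response elements hold E-boxes, was in none of these windows and in 5.59% of all windows. Txnip had no promoter entry, so its promoter was not searched for either motif. A match of letters is a description and does not show that a factor binds there.

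Values are log2 normalized intensities, and differences are between group means on that scale. A difference passes where limma's p, adjusted by Benjamini-Hochberg over all tested probes, is under 0.05. The arrays had a median net intensity of 103.23 to 281.01, and 83.3% to 89.9% of gene probes lay above background. Chow 1 and 2 and supplemented 5 and 6 were nearly identical, with a standard deviation of their differences of 0.14 and 0.13 in that order against 0.27 to 0.51 in 27 comparable pairs, so each such pair was averaged and counted as 1 sample. This left 5 chow, 5 supplemented, 6 deficient, 3 depletion and 4 repletion samples. Shared defective spots placed the arrays in 5 sets, whose nature the files do not state. Set 1 holds chow 1 to 3 and supplemented 1, set 2 supplemented 2 and 3, and set 3 supplemented 4 to 6 and deficient 1 to 5. Set 4 holds deficient 6 and the depletion arrays, and set 5 chow 4 to 6 and the repletion arrays. The deficient and repletion groups share no set.

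Hepatocyte markers were bright in every group: 5 of the 10 listed had a probe, and all 5 lay above background wherever the spot was usable. The spot of Cyp2e1 was defective in part of the deficient and supplemented samples. The other 4 were read in every sample, and their summed linear level ran from 80284 to 98226. Every tested member was above background on all 25 arrays.

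Across the 5 groups, the cytosolic thioredoxin Txn1 and the peroxide-removing enzymes Prdx1 and Prdx2 differed, and Txnip did not pass. By limma's moderated F-test the adjusted p was 0.00246 for Txn1, 0.00575 for Prdx1, 0.0417 for Prdx2 and 0.0706 for Txnip. These are 3 of the 4 tested members, where 38.7% of all tested probes passed. Fitted beside the array set (a fixed block, which removes differences between sets), the same test passed Txnip (adjusted p = 0.00436). It passed none of the other 3 (0.429 for Txn1, 0.376 for Prdx1 and 0.749 for Prdx2), with 35.1% of all probes passing. The blocked fit joins some sets through single samples. Supplemented 1, the lowest Txnip sample of the series (9.17), is the only supplemented sample on set 1. Deficient 6 alone joins set 4 to the other sets. How far the blocked Txnip result rests on these samples was not tested.

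**Figure D1:**
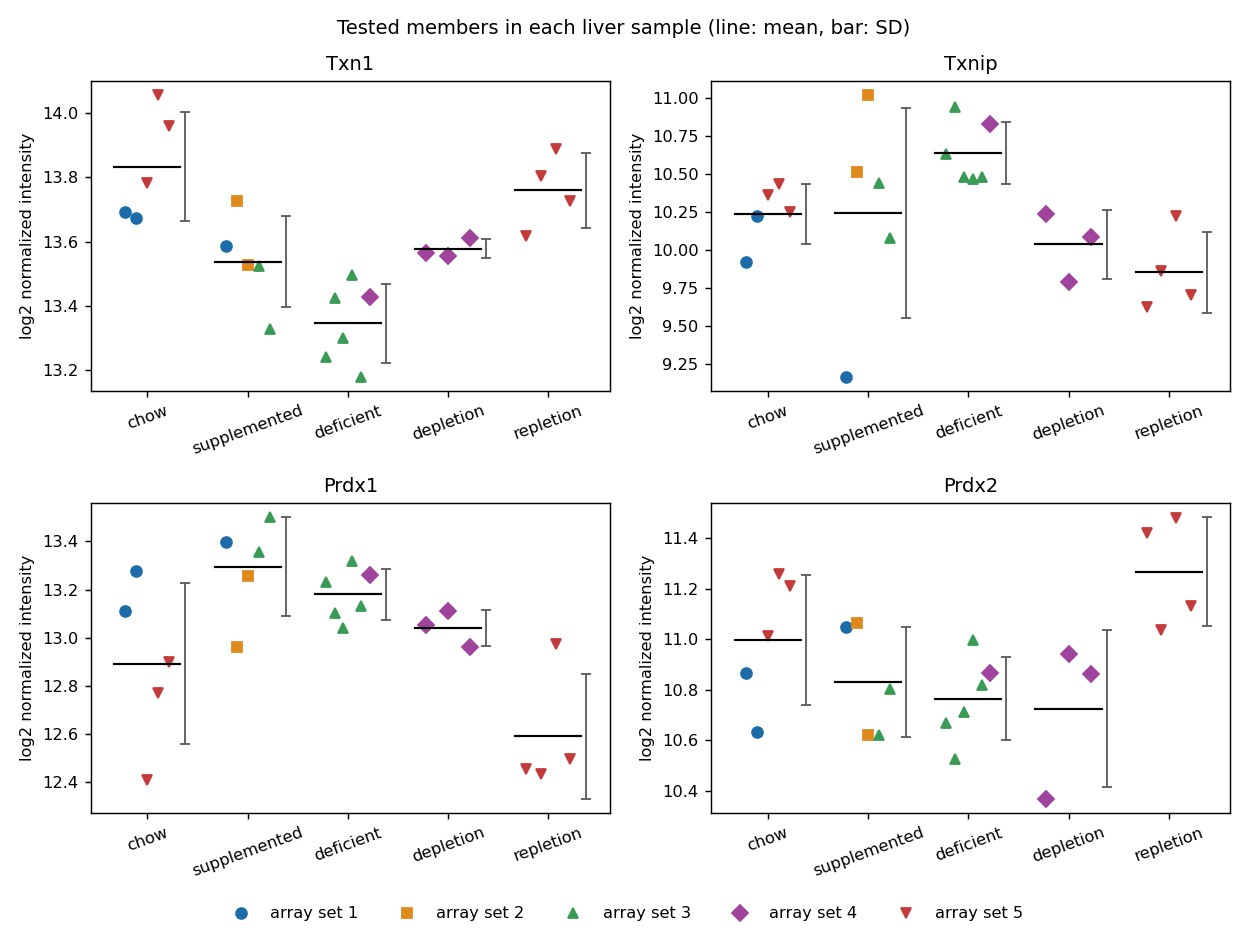
Log2 normalized intensity (y axes) of Txn1, Txnip, Prdx1 and Prdx2 in each of 23 liver samples by group, with colour and shape for the array set, a line at the group mean and a bar of 1 SD beside it. The 4 repletion samples lie above all 6 deficient samples for Txn1 and Prdx2 and below them for Txnip and Prdx1, while chow samples of set 5 lie near the repletion samples of the same set for Txn1, Prdx1 and Prdx2.

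Txn1, the main cytosolic disulfide reductase (probe 13829), was lowest in the deficient group. The 6 deficient samples read 13.24, 13.43, 13.30, 13.50, 13.18 and 13.43. The supplemented samples read 13.59, 13.73, 13.53, 13.52 and 13.33, and the 3 depletion samples 13.57, 13.56 and 13.61. The 4 repletion samples read 13.62, 13.81, 13.89 and 13.73, and the 5 chow samples 13.69, 13.67, 13.78, 14.06 and 13.96. Every repletion, depletion and chow sample was above every deficient sample, while the supplemented samples overlapped the deficient ones. Such a lack of overlap with the deficient samples was seen in 27.4% of all probes for repletion, 11.6% for depletion and 9.94% for chow. Group means ran, from low to high, in the order deficient (13.35 ± 0.12, SD, n = 6), supplemented (13.54 ± 0.14, n = 5), depletion (13.58 ± 0.030, n = 3), repletion (13.76 ± 0.12, n = 4) and chow (13.83 ± 0.17, n = 5). No 2 neighbours in that order differed past the threshold, with adjusted p between 0.268 and 0.941.

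Txnip, the thioredoxin-binding arrestin-like protein (probe 11919), had the widest range of the tested members, 1.85 from the lowest to the highest sample. Deficient samples read 10.63, 10.94, 10.48, 10.47, 10.48 and 10.83, and repletion samples 9.63, 9.87, 10.22 and 9.71. Chow samples read 9.93, 10.23, 10.36, 10.44 and 10.25, and depletion samples 10.24, 9.80 and 10.09. All 6 deficient samples lay above all samples of these 3 groups. Of all probes, 27.4% had no overlap between deficient and repletion samples, 9.94% between deficient and chow, and 11.6% between deficient and depletion. The 5 supplemented samples read 9.17, 10.52, 11.02, 10.45 and 10.08, so that this group alone held both the lowest and the highest Txnip value of the series. Supplemented 1, the lowest, is on array set 1, and supplemented 2 and 3 are on set 2. Means were 9.86 ± 0.27 in repletion, 10.04 ± 0.23 in depletion, 10.24 ± 0.20 in chow, 10.25 ± 0.69 in supplemented and 10.64 ± 0.20 in deficient rats, and no neighbours in this order differed past the threshold (adjusted p 0.343 to 0.990).

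Prdx1, the abundant cytosolic peroxiredoxin (probe 20435), was lowest after repletion. The 4 repletion samples read 12.45, 12.43, 12.97 and 12.50, of which repletion 3 stood apart from the other three. Deficient samples read 13.23, 13.10, 13.04, 13.32, 13.13 and 13.26, and supplemented samples 13.40, 12.96, 13.26, 13.36 and 13.50. Depletion samples read 13.05, 13.11 and 12.96. The chow samples fell on either side of these, at 13.11 and 13.28 on array set 1 and at 12.41, 12.77 and 12.90 on set 5. Means ran from repletion (12.59 ± 0.26) through chow (12.89 ± 0.33), depletion (13.04 ± 0.076) and deficient (13.18 ± 0.11) to supplemented rats (13.29 ± 0.21), with adjusted p of 0.382 to 0.681 between neighbours.

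Prdx2, a peroxiredoxin that is also abundant in red blood cells (probe 20314), was highest after repletion, at 11.42, 11.04, 11.48 and 11.13. Deficient samples read 10.67, 10.52, 10.71, 11.00, 10.82 and 10.86, and supplemented samples 11.05, 11.06, 10.62, 10.62 and 10.80. Depletion samples read 10.37, 10.94 and 10.86. Chow samples again split by array set, with 10.87 and 10.63 on set 1 and 11.01, 11.26 and 11.21 on set 5. Means were 10.73 ± 0.31 in depletion, 10.76 ± 0.17 in deficient, 10.83 ± 0.22 in supplemented, 11.00 ± 0.26 in chow and 11.27 ± 0.22 in repletion rats, and neighbours did not differ past the threshold (adjusted p 0.462 to 0.925).

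Injected PQQ against lifelong deficiency was the comparison with the most calls among the members. All 4 tested members passed, 2 of them higher and 2 lower in repletion, where 36.3% of all tested probes passed. Txn1 was higher by 0.41 (SE 0.098, 1.33-fold, adjusted p = 0.00255) and Prdx2 by 0.50 (SE 0.15, 1.42-fold, adjusted p = 0.0103). Txnip fell by 0.78 (SE 0.23, 1.72-fold, adjusted p = 0.0108) and Prdx1 fell by 0.59 (SE 0.14, 1.51-fold, adjusted p = 0.00300). For none of the 4 genes did the 4 repletion and 6 deficient samples overlap, as was so for 27.4% of all probes. In the authors' deposited value table the Txn1 difference was 0.90, and the Prdx1 difference was -0.19 and did not pass (adjusted p = 0.297).

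Array set runs along with this comparison. Once the set was fitted as a fixed block, the difference was 0.018 (SE 0.22) for Txn1 and 0.073 (SE 0.37) for Txnip. It was -0.041 (SE 0.30) for Prdx1 and -0.23 (SE 0.34) for Prdx2. Each of these SEs is larger than the one without the block, so the blocked differences are less precise. None of the 4 passed limma's test then, with 0 at an unadjusted p under 0.05 and 1.60% of all probes passing. Since no set holds both groups, this estimate runs through the chow and supplemented groups, and no within-set value exists. Supplemented 1 is the only supplemented sample on set 1, where it meets chow rats. For Txnip it is the lowest sample of the series (9.17). Within set 1 Txnip was 0.91 higher on chow than in supplemented 1, and within set 3 it was 0.34 higher in deficient than in supplemented rats. Chow rats are on sets 5 and 1, and their set 5 samples differed from their set 1 samples by 0.25 for Txn1, 0.27 for Txnip, -0.50 for Prdx1 and 0.41 for Prdx2. Over all tested probes the median absolute difference between these chow samples was 0.23 and the 90th percentile 0.59. For Txn1, Prdx1 and Prdx2 this chow difference has the sign of repletion against deficient rats, and for Txnip the opposite sign. The deficient samples are on sets 3 and 4, so it does not measure the shift between the repletion and deficient rats' sets. Within set 5, Txnip was 0.49 lower in the 4 repletion than in the 3 chow samples, which did not overlap, as was so for 13.8% of probes. That difference did not pass (adjusted p = 0.214, where 0.608% of probes passed).

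Markers of other cell types moved too. Kupffer cell markers, the liver's macrophage genes, had 7 of 13 listed genes on the array and 6 tested. Of these, 4 passed as higher in repletion than in deficient rats and none as lower, where 15.5% of all probes were higher. The list was mixed: C1qb read 11.56 in repletion against 11.84 and did not pass, and the dim Clec4f read 6.72 against 6.79. The summed Kupffer marker level ran from 11075 to 13160 in repletion and from 8703 to 12238 in deficient samples. Among 4 tested endothelial markers 2 were lower in repletion, where 20.8% of all probes were lower. Stellate cell markers went both ways. Of 2 tested, Col1a1, a collagen gene, was higher (10.15 against 9.40), while Reln read 10.80 against 11.04 and did not pass. The dim Rgs5 read 7.43 against 7.85. The summed stellate level overlapped, at 2878 to 3477 in repletion and 2629 to 3315 in deficient samples. None of these markers lay below background on every array, and their part in the member differences was not tested. Red blood cell markers were counted for Prdx2: 5 of 11 had a probe, 3 were tested, and none passed in any of the 10 comparisons (limma, with 3 of 30 tests at an unadjusted p under 0.05). The other two, Slc4a1 and Gata1, were dim, and fitted without the filter they fell by 0.63 and 0.29 in repletion against deficient rats (adjusted p = 0.000269 and 0.00155). The summed level of all 5 red blood cell markers was 2168 to 2543 in repletion and 1129 to 2823 in deficient samples, which overlap.

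**Figure D2:**
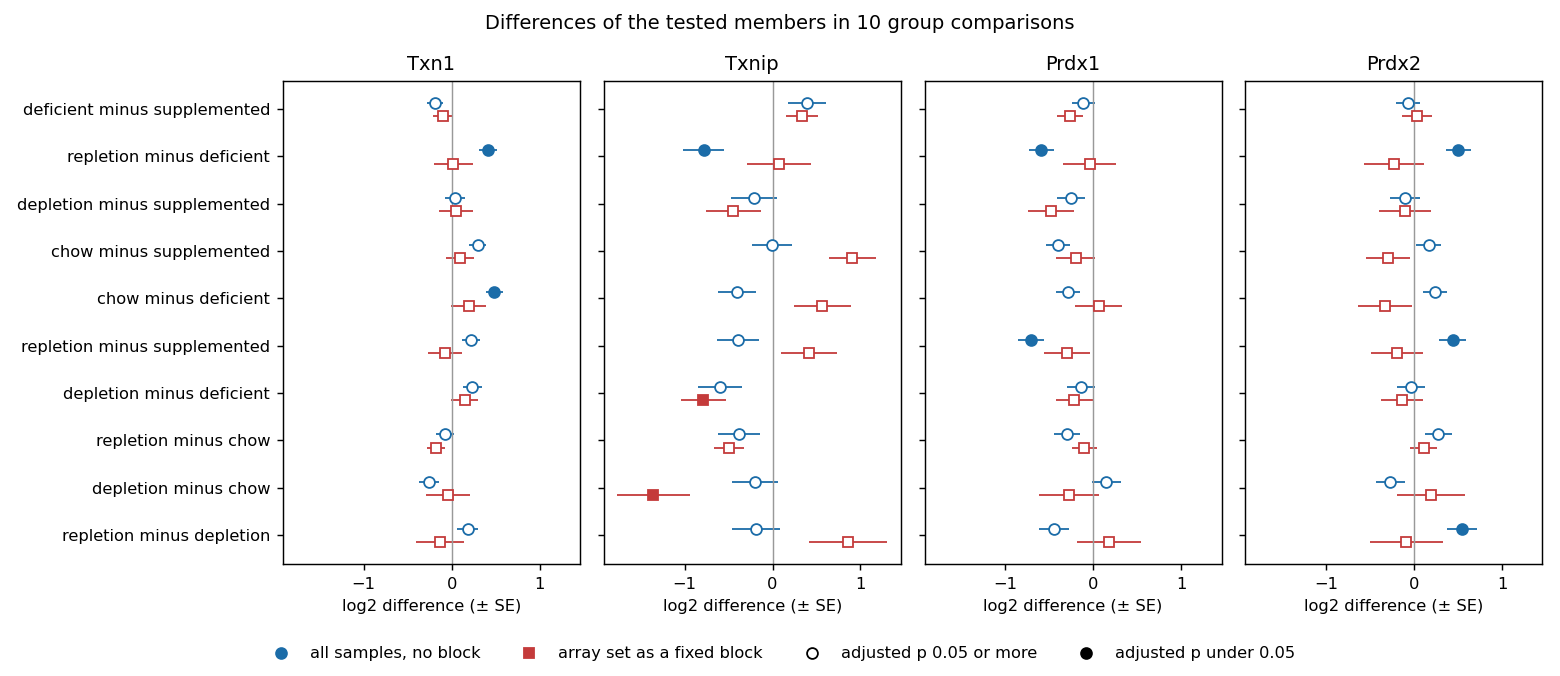
Log2 differences (x axes, with bars of 1 SE) of the 4 tested members in 10 comparisons of groups (y axis), with all samples and no block as circles and with the array set as a fixed block as squares, filled where the adjusted p is under 0.05. The 4 filled circles of repletion minus deficient have open squares between -0.23 and 0.073, and the 2 filled squares are Txnip in the depletion group against deficient and chow rats.

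Lifelong deficiency against supplementation gave no call among the members. Txnip was higher by 0.39 in deficient rats (95% interval -0.055 to 0.84, adjusted p = 0.343), and this difference was 0.12 without supplemented 1. Txn1 differed by -0.19 (SE 0.092, adjusted p = 0.268). Prdx1 and Prdx2 differed by -0.11 and -0.067. Limma passed 0 of 4 members, with 1, Txn1, at an unadjusted p under 0.05, where 3.29% of all probes passed. Within array set 3, which holds 5 deficient and 2 supplemented samples, the Txnip difference was 0.34 (adjusted p = 0.455) and that of Txn1 -0.097.

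Moving supplemented rats to the diet without PQQ for 48 h left no member past the threshold. The differences of depletion against supplemented rats were 0.040 for Txn1, -0.21 for Txnip, -0.25 for Prdx1 and -0.11 for Prdx2, with 0 of 4 at an unadjusted p under 0.05 and 0.184% of all probes passing limma's test. The 95% interval for Txnip, -0.75 to 0.33, is wide beside these values, and its difference was -0.48 without supplemented 1 and -0.013 without supplemented 3. The signs of Prdx1 and Prdx2 turned under median scaling, to 0.046 and 0.11, a setting that raises the median of all probes in this comparison from 0.011 to 0.14.

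Against the deficient group, depletion rats had lower Txnip by 0.60 with no overlap of samples (11.6% of probes had none), but this did not pass (adjusted p = 0.164). The blocked difference was -0.79 and passed (adjusted p = 0.0193, where 39.7% of all probes passed). Fitted within array set 4 alone, the same difference did not pass (adjusted p = 0.0752, where 18.7% of probes passed). This value rests on deficient 6, the only deficient sample on the depletion rats' array set. Txn1 was 0.23 higher in depletion, also with no overlap, and did not pass (adjusted p = 0.214). Limma passed 0 of 4 members without the block, with 2 at an unadjusted p under 0.05 and 7.67% of all probes passing. Without supplemented 1, which enters only the shared estimate of spread, the Txnip difference of -0.60 passed (adjusted p = 0.0420).

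Chow rats differed from deficient rats in Txn1, which was 0.49 higher on chow (SE 0.092, 1.40-fold, adjusted p = 0.000700, no overlap, as for 9.94% of probes). It was the only call among 4 members, where 27.4% of all probes passed. Txnip, Prdx1 and Prdx2 differed by -0.40, -0.29 and 0.23 (adjusted p 0.115 to 0.221). The blocked Txn1 difference was 0.19 (adjusted p = 0.806), with 0 of 4 members at an unadjusted p under 0.05 and 2.20% of all probes passing. Kupffer cell markers ran along here as well, with 5 of 6 tested genes higher on chow, where 12.0% of all probes were higher. Their summed level was 12032 to 17579 on chow. Col1a1, 1 of 2 tested stellate cell markers, was higher on chow (10.55 against 9.40). The other stellate markers were lower on chow: Reln read 10.80 against 11.04 and did not pass, and the dim Rgs5 read 7.52 against 7.85. Of 4 endothelial markers 1, Flt1, fell by 0.43, and of 5 hepatocyte markers 1, Apoa1, fell by 0.27. The part of these markers in the Txn1 difference was not tested. Without chow 3, Prdx1 also passed, at -0.38 (adjusted p = 0.0326).

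Chow against supplemented rats gave no call, with 2 of 4 members at an unadjusted p under 0.05 and 9.49% of all probes passing. Txn1 was 0.29 higher on chow (adjusted p = 0.0551) and Prdx1 differed by -0.40 (adjusted p = 0.0703). Leaving out a single sample brought these past the threshold: Txn1 without chow 1/2 (0.33), chow 3 (0.33), supplemented 2 (0.34) or deficient 6 (0.29), and Prdx1 without chow 3 (-0.50) or supplemented 2 (-0.49). Txnip differed by -0.0061. Within array set 1, which holds 2 chow samples and supplemented 1, Txnip was 0.91 higher on chow (adjusted p = 0.125, where 2.45% of probes passed), a value set by the single lowest Txnip sample. The fixed block, under which 2.66% of all probes passed, gave the same Txnip difference (adjusted p = 0.0956).

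Repletion rats shared the fall of Prdx1 and the rise of Prdx2 when set against supplemented rats, a comparison that uses the same 4 repletion samples. Prdx1 fell by 0.71 (SE 0.15, 1.63-fold, adjusted p = 0.00349) and Prdx2 was higher by 0.44 (SE 0.15, 1.35-fold, adjusted p = 0.0485), which makes 2 of 4 members, where 19.1% of all probes passed. In both genes the samples of the groups overlapped. The Prdx1 difference was -0.24 in the authors' value table and did not pass (adjusted p = 0.237). The Prdx2 call was lost in 12 of the runs that left out 1 sample, with adjusted p up to 0.147. The Txn1 and Txnip differences, 0.22 and -0.39, missed the threshold, and without supplemented 1 Txnip passed at -0.66 (adjusted p = 0.0172). Txn1 passed in the authors' deposited value table (0.73, adjusted p = 0.00667) and under median scaling (0.36, adjusted p = 0.0442). In the authors' table it was the only call, since Prdx2 (0.47, adjusted p = 0.0585) missed there too. With array weights Txnip passed at -0.52 (adjusted p = 0.0466). Blocking by array set left none of the 4 past limma's threshold, with 0 at an unadjusted p under 0.05 and 1.66% of all probes passing.

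Set against depletion rats, repletion rats had higher Prdx2 by 0.54 (SE 0.17, 1.46-fold, adjusted p = 0.0495, no overlap, as for 29.2% of probes), the only call among 4 members where 10.1% of all probes passed. It was lost in 16 of the runs that left out 1 sample, with a difference of 0.36 (adjusted p = 0.310) without depletion 1, the lowest Prdx2 sample of the series. Prdx1 differed by -0.45 (adjusted p = 0.0923) and passed without repletion 3, at -0.58 (adjusted p = 0.0477). The block left 0 of 4 past the threshold and 0 at an unadjusted p under 0.05, with 7.28% of all probes passing, and the Prdx2 difference was then -0.088.

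Repletion against chow, which share array set 5 in part, gave no call, with 0 of 4 members at an unadjusted p under 0.05 and 1.35% of all probes passing limma's test. The differences were -0.073 for Txn1, -0.38 for Txnip, -0.30 for Prdx1 and 0.27 for Prdx2. Under the block, where 1.97% of all probes passed, 0 of 4 passed and 1, Txnip at -0.49, had an unadjusted p under 0.05. Depletion against chow gave no call either, with 1 of 4 at an unadjusted p under 0.05 and 8.94% of all probes passing. There Txn1 differed by -0.26 with no overlap (as for 16.0% of probes; adjusted p = 0.159), and Txnip by -0.20. The blocked Txnip difference was -1.35 and passed (adjusted p = 0.0284, where 18.7% of probes passed), a value that again runs through deficient 6 and supplemented 1.

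Txn2, the mitochondrial thioredoxin (probe 21847), and Txnrd1, the cytosolic thioredoxin reductase (probe 22430), were dim, above background on 24 and 25 of 25 arrays, and were fitted without the filter on dim probes. Txn2 read 6.48, 7.87 and 7.83 in depletion and 7.37, 7.22, 6.95 and 7.18 in repletion. It ran from 6.40 to 6.63 in the 5 supplemented samples, from 5.88 to 7.00 with a median of 6.72 in the 6 deficient samples, and from 6.23 to 7.48 in the 5 chow samples. Deficient 6 and depletion 2, the lowest and the highest sample, are on the same array set. Depletion against supplemented rats differed by 0.84 (SE 0.30, adjusted p = 0.171).

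Txnrd1 spanned only 0.66 over all samples. It read 6.83, 6.87 and 6.52 in depletion, 6.70, 6.80, 6.63 and 6.59 in repletion, and 6.31 to 6.58 in the supplemented samples. Deficient samples 1 to 5 lay between 6.33 and 6.57 and deficient 6 at 6.96, while chow samples lay at 6.47 on array set 1 and at 6.61, 6.79 and 6.79 on set 5. No comparison passed for Txn2 or Txnrd1, with adjusted p of 0.120 or more and 0.179 or more.

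**Figure D3:**
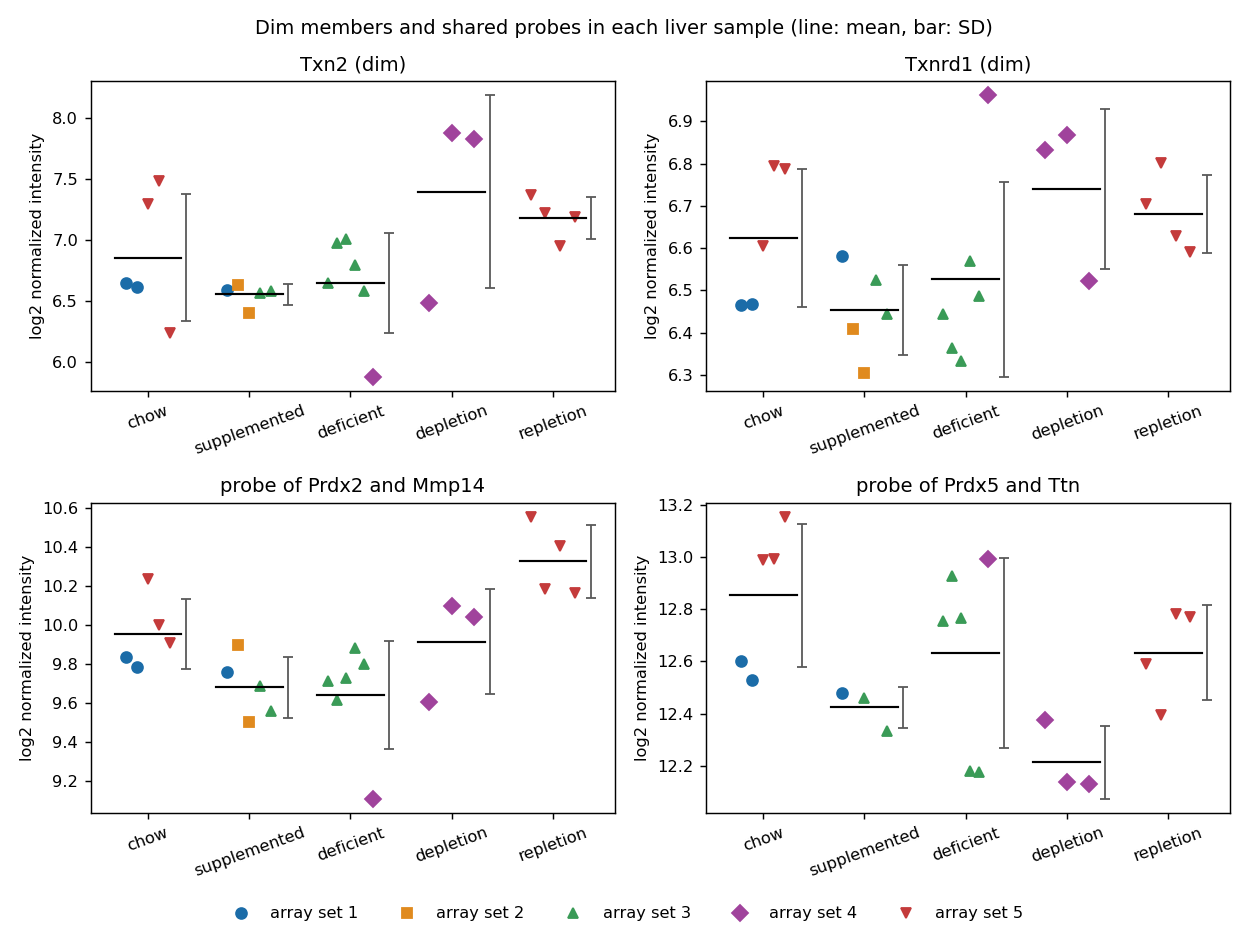
Log2 normalized intensity (y axes) of the dim members Txn2 and Txnrd1 and of the probes shared by Prdx2 and Mmp14 and by Prdx5 and Ttn, in each liver sample by group, drawn with the array set as colour and shape, a line at the mean and a bar of 1 SD. Deficient 6 is the lowest sample of Txn2 and of the Prdx2 and Mmp14 probe and the highest of Txnrd1.

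Probe annotations were in places shared between genes, and their probes cannot be given to 1 gene. The probe of Prdx2 and Mmp14 (21704) read 10.55, 10.18, 10.40 and 10.16 in repletion, all above the deficient (9.11 to 9.88) and supplemented samples (9.50 to 9.90). Repletion had no overlap with deficient samples in 27.4% of all probes and with supplemented samples in 26.9%. This shared probe was 0.68 higher in repletion than in deficient rats (SE 0.14, adjusted p = 0.000871) and 0.64 higher than in supplemented rats (adjusted p = 0.00532). Of all probes 36.3% and 19.1% passed in these comparisons. The direction was the same as for the probe of Prdx2 alone. With the array set as a block these were 0.21 and 0.33 and did not pass (adjusted p = 0.938 and 0.721). The probe of Prdx5 and Ttn (2619) read 12.37, 12.14 and 12.13 in depletion and 12.60, 12.53, 12.99, 12.99 and 13.15 in chow samples. That difference of -0.64 passed (SE 0.19, adjusted p = 0.0389, where 8.94% of all probes passed), and the spot was missing in supplemented 2 and 3. Array set runs along with it, since chow samples of set 5 lay 0.48 above those of set 1, and the blocked difference was -0.70 and did not pass (adjusted p = 0.248). Its deficient samples split widely, with 12.18 and 12.18 in deficient 4 and 5 and 12.76 to 12.99 in the other four.

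Other thiol redox genes, which include further peroxiredoxins, glutaredoxins, disulfide isomerases and methionine sulfoxide reductases, were counted for 33 listed genes, of which 20 had a probe and 18 were tested. Between repletion and deficient rats 3 were higher and 4 lower, where 15.5% of all probes were higher and 20.8% lower. Their median difference was 0.12, against -0.031 over all probes. Erp44, which retains proteins in the early secretory pathway through disulfides, fell by 0.81 (SE 0.15, adjusted p = 0.000276). Txndc12, a thioredoxin-domain protein of the endoplasmic reticulum, was higher by 0.67 (SE 0.17, adjusted p = 0.00458). Msrb1 and Msrb2, methionine sulfoxide reductases that thioredoxin can recharge, were higher by 0.61 (SE 0.14, adjusted p = 0.00179) and 0.50 (SE 0.10, adjusted p = 0.000503). Under the array set block none of the 18 passed (limma, 0 at an unadjusted p under 0.05). Between deficient and supplemented rats none of the 18 passed, with 2 at an unadjusted p under 0.05.

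The closest relatives of the members on that list are named after their values were seen. Prdx4, the peroxiredoxin of the secretory pathway, had group means of 12.65 to 12.82 and passed in none of the 10 comparisons. Srxn1, sulfiredoxin, which repairs overoxidized peroxiredoxins, had means of 7.69 to 8.08 and passed in none.

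Nrf2 target genes other than the members, 25 listed, 19 with a probe and 18 tested, showed calls in both directions. Srxn1 is on this list too. In repletion against deficient rats 3 were higher and 2 lower, where 15.5% of all probes were higher and 20.8% lower. The median difference was -0.063, against -0.031 over all probes. Ugdh, which makes UDP-glucuronate, fell by 0.74 (SE 0.13, adjusted p = 0.00019), and Gclm, a subunit of the enzyme that starts glutathione synthesis, fell by 0.56 (SE 0.15, adjusted p = 0.00758). Hmox1, heme oxygenase, and Gstm1, a glutathione transferase, were higher by 0.71 (SE 0.17, adjusted p = 0.00303) and 0.70 (SE 0.24, adjusted p = 0.0275). None of the 18 passed under the block (limma, 3 at an unadjusted p under 0.05).

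Between deficient and supplemented rats 2 of these 18 genes were lower in deficiency and none higher, where 1.56% of all probes were lower. Ephx1, microsomal epoxide hydrolase, fell by 0.75 (SE 0.20, adjusted p = 0.0382), and Hmox1 fell by 0.59 (SE 0.16, adjusted p = 0.0497). The list's median difference was -0.24 against 0.0043 over all probes. Kupffer cell markers were lower too in this comparison, 2 of 6, and Hmox1 is also expressed by macrophages, whose part was not tested. Under the block none of the 18 passed, with 5 at an unadjusted p under 0.05. In chow against deficient rats, where Txn1 passed, 3 of the 18 were higher and 1 lower, where 12.0% of all probes were higher and 15.4% lower. None of these passed under the block (limma, 3 of the 18 at an unadjusted p under 0.05). Akr7a3, an aldehyde reductase, was higher by 1.34 (SE 0.26, adjusted p = 0.000963), Gstm1 by 0.79 (SE 0.23, adjusted p = 0.0131) and Gsr, glutathione reductase, by 0.67 (SE 0.14, adjusted p = 0.00128), while Ugdh fell by 0.46 (SE 0.12, adjusted p = 0.00742).

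Carbohydrate response genes were counted beside Txnip, with 21 listed, 12 with a probe and 11 tested. In repletion against deficient rats, where Txnip fell, 1 was higher and none lower, where 15.5% of all probes were higher and 20.8% lower. That gene was Khk, the kinase that traps fructose, at 0.35 (SE 0.13, adjusted p = 0.0367). The difference of Khk is also the list's median, against -0.031 over all probes. With the block none of the 11 passed (limma, 1 at an unadjusted p under 0.05). In depletion against chow rats 3 were higher, all genes of fatty acid synthesis, where 4.34% of all probes were higher. With the block 2 of the 11 passed, where 18.7% of all probes passed. Without the block Acly was higher by 1.37 (SE 0.37, adjusted p = 0.0259), Elovl6 by 1.34 (SE 0.33, adjusted p = 0.0143) and Fasn by 1.22 (SE 0.38, adjusted p = 0.0494). The Txnip difference there, without the block, was -0.20.

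With the block, calls on the lists were more in some depletion comparisons and fewer in others. Of the 18 thiol redox genes, 9 passed between depletion and supplemented rats with the block and none without it, where 27.8% and 0.184% of all probes passed. In repletion against depletion rats, where 7.28% of all probes passed with the block and 10.1% without it, 1 of the 18 passed with the block and 2 without. Of the Nrf2 target genes, 3 passed between depletion and supplemented rats with the block and none without it, and in repletion against depletion rats none with it and 1 without. Of the 11 carbohydrate response genes, 4 passed between depletion and supplemented rats with the block and none without it. Between depletion and deficient rats 3 of them passed with it and none without, where 39.7% and 7.67% of all probes passed. In repletion against chow rats 3 of the 11 also passed with the block and none without it, where 1.97% and 1.35% of all probes passed. The blocked value of a depletion comparison rests on deficient 6 as the single link of array set 4 to the other sets.

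Likeness of pattern was measured by Pearson's correlation of log2 values over the 23 samples, with 3735 genes that were tested and had no missing value. It is a description, since samples share array sets. Txn1 was most like Tmem205 (r = 0.90), Dpy30 (0.88), Cnih4 (0.88), Pam16 (0.87) and Gsr (0.87). Once the mean of each array set was taken off, Gsr was still among the 5 highest for Txn1 at 0.66, with Slc5a6 at 0.75, Fmo5 at 0.73 and Akr7a3 at 0.72. Prdx2 was most like Cfl1 (0.90, and 0.82 after set means were taken off) and least like Bnip3l (-0.87, and -0.79 after). Txnip was most like Blzf1 (0.81) and Ppy (0.76), with 0.71 and 0.64 after, and least like Stard10 (-0.74). Prdx1 was most like Cmpk1 (0.89, and 0.60 after) and least like Svip (-0.88, and -0.63 after).

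Among themselves, the 4 tested members split by direction in the values as measured. Txn1 and Prdx2 correlated at 0.61, and Prdx1 at -0.55 with Txn1 and at -0.53 with Prdx2. After the array set means were taken off, these became 0.032, 0.30 and 0.26. Txnip and Prdx2 correlated at -0.45, and at -0.40 after, and Txnip and Txn1 at -0.28, and at 0.22 after. The opposing patterns of Prdx1 with Txn1 and Prdx2, and of Txnip with Txn1, were not seen once set means were taken off. That of Txnip with Prdx2 was of similar size either way. Taking off set means also takes off much of the difference between groups. Every repletion sample is on set 5 and every depletion sample on set 4, with 5 deficient samples on set 3 and 1 on set 4. Whether the change in these correlations came from array set or from group was not tested.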

How the data were processed

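Per the labels' protocols, total liver RNA of individual rats was amplified to biotin-labelled cRNA and hybridised to CodeLink UniSet Rat I arrays. The deposited scanner tables hold, per the file headers, each spot's intensity, its background intensity and a flag (unit other) that marks the spots missing in the authors' value table. That deposited table holds a linear signal with a normalization not given in the sources used here; it served as an alternative. Its column medians run from 0.717 to 0.972, and its rank correlation of 0.997 or more with each array's scanner intensity sets its direction, while its scaling stays unknown.

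Spots were background-corrected with limma 3.58.1 (R 4.3.3) by normexp with offset 50. Controls (488 of 10399 spots) were removed, flagged spots set to missing, and the other 9911 probes quantile normalized and taken to log2. Probes over their array's median in 50% or more of any group's samples were tested, which left 5450. Above background means over the median plus 3 MADs of bacterial control spots. Symbols came from the platform annotation, updated through RefSeq (GRCr8), or from the probe's RNA accession: 7359 probes had 1 symbol, 83 several and 2469 none. The brightest probe represents a gene.

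All 5 groups entered 1 limma fit with Benjamini-Hochberg adjustment over all tested probes (threshold 0.05, 2-sided), giving an F-test and 10 pairwise comparisons. Comparisons share groups, so their values are given side by side. RNA was unpooled per the labels, and each sample counts as 1 rat. The code was tested on simulated data. All members were named, and from each list up to 4 genes that passed with the largest difference in the comparison described. Members, lists, the averaged pairs and the array sets (defective spots overlapping by over 0.5) were chosen with earlier results of these data known. Alternatives changed the background correction, scaling, filter, values, samples, blocks and weights. The number of arrays limits the precision. Promoter letters came from a RefSeq table, in which 8 of the 10 members, all but Txnip and Prdx6, had an entry.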

Additional observations from a re-analysis of the deposited data

Results flagged for a closer look

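Within each group of 4 or more samples, the highest and the lowest value of each probe were set against the rest by Dixon's criterion. Of 31 groups, 4 held a sample that stood apart, and chance marks about 1 group in 20. Prdx1 in repletion 3 read 12.97, above the other repletion samples, whose nearest was 12.50. Txnrd1 in deficient 6 read 6.96, above the other deficient samples, whose nearest was 6.57. The probe shared by Prdx2 and Mmp14 read 9.11 in deficient 6, below the nearest deficient sample at 9.61. Txn2 in supplemented 3 read 6.40, below the nearest supplemented sample at 6.57. Deficient 6 is the only deficient sample on array set 4. Its array had the lowest share of gene probes above background of all arrays (83.3%), with a median net intensity of 120.35. What sets it apart was not tested.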

How the results depend on the processing

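The 4 calls of repletion minus deficient and the Txn1 call of chow minus deficient held in every run that left out 1 sample, with adjusted p up to 0.0473. They also held in every other alternative except 3: the array set as a fixed block, the array set as a random block (consensus correlation 0.54), and, for Prdx1, the authors' value table. The cause was not tested. Differences are log2 and counts are of 4 tested members.

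With the array set as a fixed block, 1 member differed among the 5 groups. Counts of calls were 0 in repletion minus deficient, chow minus deficient, repletion minus supplemented and repletion minus depletion, and 1 in depletion minus deficient and in depletion minus chow. Signs turned for Txnip in repletion minus deficient (0.073), chow minus supplemented (0.91, also within array set 1), chow minus deficient (0.57), repletion minus supplemented (0.41) and repletion minus depletion (0.86). They turned for Prdx2 in deficient minus supplemented (0.034, also within array set 3), repletion minus deficient (-0.23), chow minus supplemented (-0.30, also within set 1), chow minus deficient (-0.33), repletion minus supplemented (-0.19), depletion minus chow (0.19) and repletion minus depletion (-0.088). They turned for Prdx1 in chow minus deficient (0.062), depletion minus chow (-0.28) and repletion minus depletion (0.18), and for Txn1 in repletion minus supplemented (-0.079) and repletion minus depletion (-0.13). With the array set as a random block 0 members differed among the groups, and 0 passed in repletion minus deficient, chow minus deficient, repletion minus supplemented and repletion minus depletion. Signs turned for Txnip in chow minus supplemented (0.35) and repletion minus depletion (0.068) and for Prdx2 in chow minus supplemented (-0.040) and chow minus deficient (-0.00978).

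In chow minus supplemented, where 0 passed, 1 passed under median scaling, no filter, the filter on control spots, defective spots kept and the authors' value table, and 2 with 25 arrays as samples and with array weights. In repletion minus supplemented 1 passed with net intensity floored at 1, with no filter and in the authors' value table (there Txn1, with the Prdx1 and Prdx2 calls lost). In depletion minus deficient 1 passed under median scaling and with array weights. In repletion minus depletion 0 passed with net intensity floored at 1, with no filter, in the authors' value table and with only the groups compared, and 2 with array weights. Median scaling, which moves the median of all probes in comparisons with depletion by 0.099 to 0.13, turned Prdx1 (0.046) and Prdx2 (0.11) in depletion minus supplemented and Prdx1 (0.17) and Prdx2 (0.15) in depletion minus deficient. Array weights turned Prdx2 in depletion minus supplemented (0.060) and depletion minus deficient (0.15). The authors' value table turned Txnip in chow minus supplemented (0.047), Txn1 in repletion minus chow (0.14) and Prdx1 in depletion minus chow (-0.074), and the floor at 1 turned Txnip in chow minus supplemented (0.0014).

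Leaving out 1 sample at a time, members differing among the groups ranged from 2 to 4, and calls from 1 to 2 in chow minus deficient, 0 to 2 in chow minus supplemented, 0 to 1 in depletion minus deficient and in repletion minus depletion, and 1 to 3 in repletion minus supplemented. Differences whose sign turned ranged from -0.28 to 0.19 for Txnip in chow minus supplemented, from -0.15 to 0.14 and -0.21 to 0.072 for Prdx2 in depletion minus deficient and depletion minus supplemented, and from -0.013 to 0.086 for Txn1 in depletion minus supplemented.

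With the title number as a replicate block, 0 members passed in repletion minus depletion, Prdx2 in depletion minus deficient turned to 0.029, and no other call count changed past 1.5 times. Over 36 same-numbered pairs of samples the deviations from group means had a median correlation of -0.037, with 8 above 0.1, so the numbers were not taken to pair the samples. The mean of all probes of a gene was not run, since each represented member has 1 probe of its own. Dim probes limit Txn2 and Txnrd1.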
